A study of Mus musculus with 367 samples.

Results

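The genes described here are 44 genes of the interferon response and of MHC class I antigen presentation, taken by name from a list and found once each among the 50600 gene IDs of 7 single-cell matrices from mouse skin wounds. The list was made by name and not by a rule on the measured values, but it was chosen with earlier results of these data known. It holds 4 genes of transcription and signalling (Stat2, Irf1, Irf7, Irf9), 4 sensors of foreign nucleic acid (Ifih1, Ddx58, Dhx58, Zbp1), 3 genes of the ISG15 system (Isg15, Usp18, Trim25), 19 antiviral effectors, 6 guanylate-binding proteins and immunity-related GTPases, and 8 genes of MHC class I.

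Interferons are secreted proteins that bind receptors on neighbouring cells and activate JAK kinases, which phosphorylate STAT proteins. Complexes that hold STAT2 and IRF9 bind the interferon-stimulated response element, the GAS element is bound after interferon gamma, and many antiviral genes lie downstream of either site. MHC class I molecules present peptides, cut by the proteasome and carried into the endoplasmic reticulum by the TAP transporter, to CD8 T cells. Beta-2-microglobulin, encoded by B2m, is the light chain shared by these molecules.

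Cells came from Sm22-Cre;tdTomato mice of mixed background, 3 to 8 weeks old per the labels, in which Cre stands under the promoter of Tagln (SM22), a contractile gene, and tdTomato marks cells with present or past Cre activity. Square excisional wounds with a side of 1.5 cm were made on the back, wound tissue of 2 to 3 animals per time point was pooled on post-wounding days (PWD) 12, 15 and 21, and viable tdTomato-high cells were sorted and captured on the C1 microfluidic system. There were 3 captures at day 12, 2 at day 15 and 2 at day 21, all of wounded skin, and no unwounded control. Whether captures of a day held cells of different mice was not stated, so p-values over captures measure only the spread between captures, which may be technical.

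Of 367 cells, 292 passed limits on fragments, genes and mitochondrial share, and they were divided into kinds by 3 genes that are not on the list. Matrix cells (198) had Col1a1 of at least 1000, Rgs5 under 100 and Tyrobp under 50 FPKM, mural cells (57) had Rgs5 of at least 500 and Tyrobp under 50, and myeloid cells (26) had Tyrobp of at least 500, while 11 cells met no rule. FPKM gives fragments per kilobase of transcript, scaled to the depth of the cell, so levels of different genes are compared per length here. Estimated median fragments per cell were 968484 in each day 15 capture, 1231180 to 2134060 at day 12 and 2221150 to 2334920 at day 21. Sums of markers were compared between kinds. Each sum includes the gene that set the kind (Rgs5, Tyrobp or Col1a1), so part of each gap follows from the rule. The sum of 10 mural markers was 8998 to 11030 FPKM in mural captures and at most 132.7 elsewhere. The sum of 10 myeloid markers was 23260 to 36920 FPKM in myeloid captures and at most 94.08 elsewhere. Of the 10 mural markers, 9 were found in over 50% of mural cells, 1 in over 50% of matrix and 2 in over 50% of myeloid cells. Of the 10 myeloid markers, 10 were found in over 50% of myeloid cells and 0 in over 50% of the other kinds. The sum of 10 matrix markers was 27010 to 47150 FPKM in matrix captures, but it reached 21970 in mural and 16260 in myeloid captures, and 19 mural and 4 myeloid cells had Col1a1 of 1000 FPKM or more. Lymphocyte markers summed to at most 4.864 FPKM in any capture, with Cd3e, Cd3g and Nkg7 at 0 in every kind.

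Letters that match the binding sites of the pathway were searched for in the promoters, and binding itself was not measured. RefSeq gives a promoter window, from 250 bases before to 50 after the gene start (GRCm38.p6), for 33 of the 44 genes. The core of the interferon-stimulated response element, searched as GAAANNGAAA on both strands, was present in 18 of the 33. These genes have 38 windows, as some have more than 1, and the core was in 18 of the 38 (47.4%) and in 3.44% of all 32851 windows. The GAS element, searched as TTCNNNGAA, a palindrome, was in 9 of the 38 (23.7%) and in 8.3% of all windows. In 5 genes both were found, and in 2 of these a match of one overlapped a match of the other. By role, the response element core was found in all 5 guanylate-binding protein and GTPase genes with a window, in both sensors with a window, in 8 of 14 antiviral effectors and in 1 of 6 MHC class I genes, B2m. The following stretches show it in capitals for the 6 genes with a match that passed a test below (B2m, Ifitm2, Gbp3, Gbp7, Ifit1, Oas1a) and for Isg15 and Ifit3, which are among the best known targets. Each runs 5′ to 3′ on the strand of its gene, in build GRCm38.p6.
Isg15, chr4:156200857-156200916, minus strand: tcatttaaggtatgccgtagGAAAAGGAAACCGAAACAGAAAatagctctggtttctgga
Ifit1, chr19:34640765-34640824, plus strand: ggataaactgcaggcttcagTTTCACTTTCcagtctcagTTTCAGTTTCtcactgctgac
Ifit3, chr19:34583353-34583426, plus strand: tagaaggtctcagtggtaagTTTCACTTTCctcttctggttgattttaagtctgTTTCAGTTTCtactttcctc
Gbp3, chr3:142559979-142560038, plus strand: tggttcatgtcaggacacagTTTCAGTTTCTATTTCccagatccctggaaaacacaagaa
Gbp7, chr3:142530263-142530322, plus strand: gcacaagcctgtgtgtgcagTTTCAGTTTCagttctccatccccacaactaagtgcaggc
B2m, chr2:122147528-122147587, plus strand: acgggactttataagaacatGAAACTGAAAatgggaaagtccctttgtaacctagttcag
Ifitm2, chr7:140955968-140956027, minus strand: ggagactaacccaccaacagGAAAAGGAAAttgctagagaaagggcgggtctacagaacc
Oas1a, chr5:120907526-120907585, minus strand: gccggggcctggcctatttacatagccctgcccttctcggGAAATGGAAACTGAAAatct
Isg15 held 3 overlapping matches within one run, Ifit1 and Ifit3 each held 2 separate matches, and Gbp3 and Oas1a each held 2 that overlap. In B2m the single match began 139 bases before the gene start. The windows of H2-K1, H2-D1, Psmb8 and Psmb9 held no match to the response element core, which says only that these letters are not in the windows searched.

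Levels of the 44 genes ranged from a mean of 0.132 FPKM over all kept cells for Cmpk2 to 2137 for Ifitm3. A profile is the mean FPKM over the cells of one kind in one capture with at least 3 such cells, which gave 7 matrix, 5 mural and 4 myeloid profiles. After Ifitm3 came Ifitm2 at 1901, B2m at 1866, H2-D1 at 504, H2-K1 at 229, Irf1 at 125 and Psmb8 at 112 FPKM, and every other member was below 100 FPKM. There were 4 genes, Cmpk2, Mx1, Oas3 and Rsad2, that had a mean below 1 FPKM over the profiles and were not tested, which left 40.

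**Figure D1:**
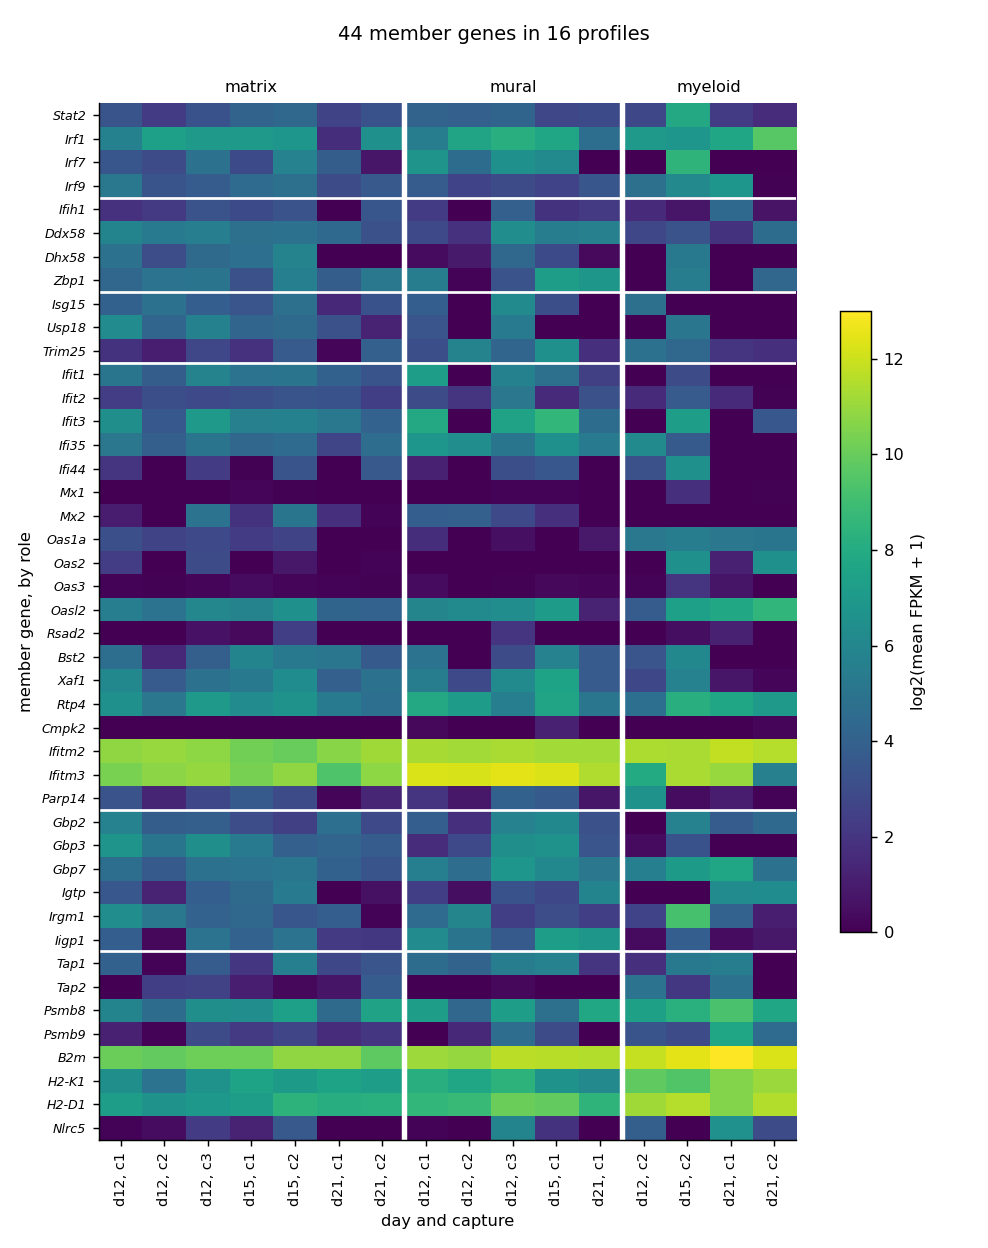
Levels of the 44 genes, one row per gene grouped by role and separated by white lines, in the 16 profiles (columns, by kind, day d and capture c). Colour gives log2(mean FPKM + 1): B2m and Ifitm2 are bright in all 16, H2-K1 and H2-D1 are brightest in the 4 myeloid profiles, and Cmpk2, Mx1, Oas3 and Rsad2 are dark, with at most 4.396 FPKM.

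Most members were found in a minority of cells, with 34 of 44 found in under 50% of matrix cells, 29 in under 50% of mural cells and 31 in under 50% of myeloid cells. B2m was found in all 281 cells of the 3 kinds, and Ifitm2 in 97.0% of matrix, 98.2% of mural and 96.2% of myeloid cells. Isg15, a ubiquitin-like protein that is conjugated to other proteins, was found in 21.7% of matrix, 22.8% of mural and 11.5% of myeloid cells. Ifit1, which binds foreign RNA caps, was found in 37.9% of matrix, 43.9% of mural and 7.69% of myeloid cells. With so few positive cells, single cells carried much of a profile: for members with a mean of 1 FPKM or more, the highest cell held a median of 41.7% of the summed FPKM in matrix profiles, 63.7% in mural profiles and 81.9% in myeloid profiles. Over all genes the same medians were 43.8%, 63.2% and 86.7%.

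B2m and H2-D1, the light chain and a classical heavy chain of MHC class I, were ordered by kind without overlap, lowest in matrix, then mural, then myeloid. B2m (chr2:122147686-122153083, build GRCm38 here and below) had a level in matrix cells of 1077, 949.7 and 1130 FPKM in the 3 captures of day 12, 1137 and 1833 at day 15, and 1819 and 877.6 at day 21. In mural cells it was 2211, 1958 and 3209 FPKM at day 12, 3092 in capture 1 of day 15 and 2909 in capture 1 of day 21. In myeloid cells it was 3696 FPKM in capture 2 of day 12, 5590 in capture 2 of day 15, and 8008 and 4900 at day 21. Every mural capture therefore lay above every matrix capture and below every myeloid capture.

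H2-D1 (chr17:35262730-35267499) showed the same order with a wider spread within kinds. Its matrix level was 152.8, 101 and 122.5 FPKM at day 12, 155.8 and 339.6 at day 15, and 277 and 301.1 at day 21. Its mural level was 395.1, 426.2 and 1063 FPKM at day 12, 925.3 at day 15 and 349.8 at day 21. Its myeloid level was 2294 FPKM at day 12, 3014 at day 15, and 1526 and 2938 at day 21. The highest matrix capture stood just below the lowest mural capture. H2-D1 was found in 81.3% of matrix, 91.2% of mural and all 26 myeloid cells.

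H2-K1 (chr17:33996017-34000347), the other classical heavy chain, separated only the myeloid cells. Matrix captures ran from 29.79 to 185.7 FPKM (median 133.8) and mural captures from 67.65 to 338.1 (median 205.6), which overlap. Myeloid captures were 893.6 FPKM at day 12, 715.4 at day 15, and 1520 and 2080 at day 21, all above the other kinds. H2 genes are polymorphic and much alike in sequence, and the mice were of mixed background, so how fragments were divided among them is uncertain.

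**Figure D2:**
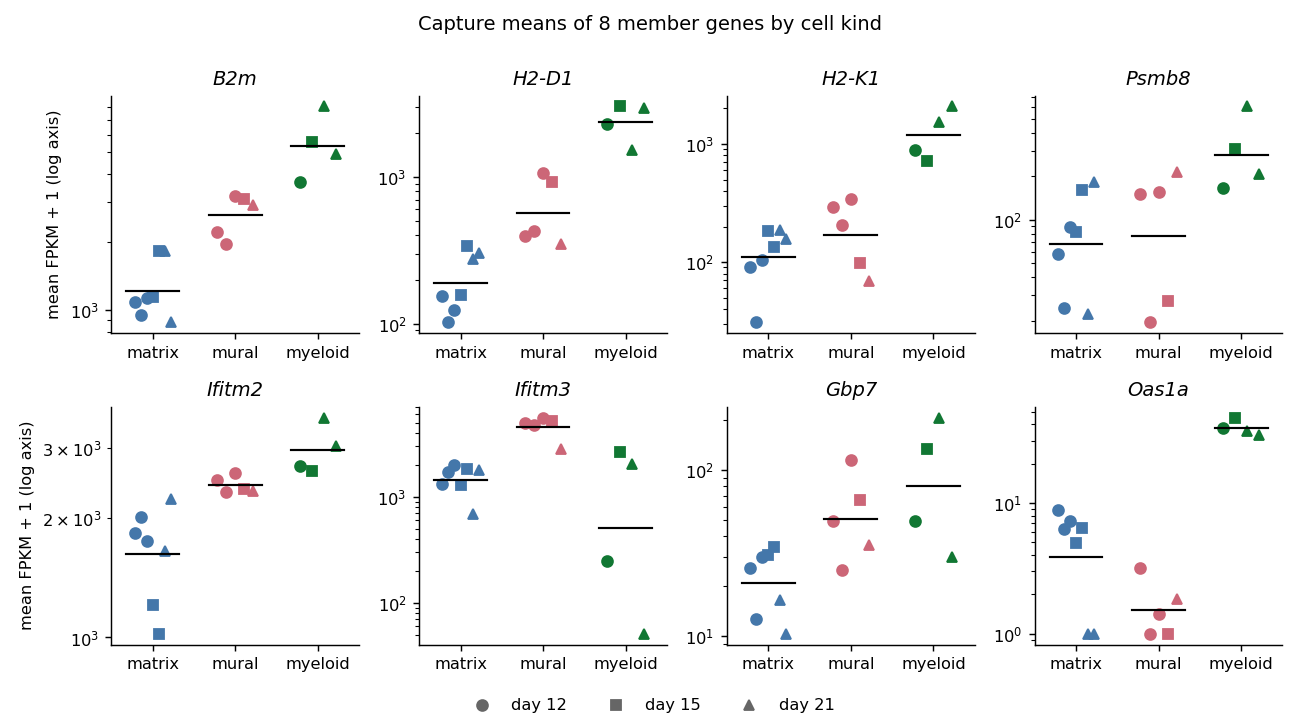
Mean FPKM + 1 (vertical log axis, own range in each panel) of 8 genes in matrix, mural and myeloid cells; each point is a capture, its shape the day, and the bar the mean on the log scale. The 3 kinds do not overlap for B2m and H2-D1, the 4 myeloid captures stand apart for H2-K1 and Oas1a, and the 5 mural captures stand above all others for Ifitm3, from 2814 to 5567 FPKM against at most 2623 elsewhere.

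In the comparison of mural with matrix cells, 2 of the 40 members tested were higher and none was lower, where 1.05% of all 14022 genes passed (0.713% higher, 0.335% lower). Both were MHC class I genes. Differences are on the log2(mean FPKM + 1) scale, from limma with capture as a block, and the threshold was an adjusted p of 0.05. B2m rose by 1.12 (SE 0.18, 2.18-fold, adjusted p = 0.0074) and was higher in 5 of 5 captures with both kinds. H2-D1 rose by 1.82 (SE 0.39, 3.54-fold, adjusted p = 0.04), also in 5 of 5. Both calls are close to the threshold: B2m had an adjusted p of 0.058 without capture 2 of day 12 and 0.051 without capture 1 of day 15, and H2-D1 had 0.099, 0.15 and 0.16 without captures 1, 2 and 3 of day 12 and 0.17 without capture 1 of day 15. H2-K1 differed by 0.66 (95% interval -0.56 to 1.89, adjusted p = 0.72).

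With no adjustment, 8 of the 40 members had p under 0.05 (12.1% of all genes), 6 of them higher (3.69%) and 2 lower (8.45%). The group higher in all 5 captures held 7 of 40 members, Trim25, Ifi35, Ifitm2, Ifitm3, Gbp7, B2m and H2-D1 (17.5%, against 4.69% of all genes), and the group lower in all 5 held Usp18 alone (2.5%, against 8.35%). Ifitm3, a membrane protein that restricts the entry of enveloped viruses, was 4923, 4763 and 5567 FPKM in mural cells at day 12, 5150 at day 15 and 2814 at day 21. Its matrix captures ran from 684.9 to 1999 FPKM, below each of these. The difference of Ifitm3 was 1.59 (SE 0.66, adjusted p = 0.34) in the fit of the 3 kinds. It was 1.78 (adjusted p = 0.00016) in a fit of the 2 kinds only, the lowest adjusted p of 18 alternatives. In 16 of the 18 Ifitm3 did not pass, and its adjusted p reached 0.68. Its myeloid captures, which share the spread in the fit of the 3 kinds, ran from 50.21 to 2623 FPKM, and their part in this was not tested. Usp18, the protease that removes ISG15 from proteins and dampens the interferon receptor, was 9.909, 0.02857 and 39.47 FPKM in mural cells at day 12 and at 0 at days 15 and 21, below the matrix cells of each capture, and differed by -2.63 (SE 0.78, adjusted p = 0.15). Iigp1, a GTPase of the same family as Igtp, was 11.79 to 156.9 FPKM in mural and 0.23 to 30 in matrix captures (difference 2.79, SE 0.83, adjusted p = 0.15). Over the 40 members the median difference was 0.30, beside -0.25 over all genes. It fell to -0.05 without capture 1 of day 15, beside -0.25 over all genes. Without the highest cell of each gene and profile it was -0.29, beside -0.68 over all genes. Endothelial markers summed to 52.77 to 283.7 FPKM in mural captures and at most 8.042 in other kinds, with Cdh5 and Cldn5 at 0, and the part of these transcripts and of the Col1a1-positive mural cells in the differences was not tested.

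In the comparison of myeloid with matrix cells, 7 of 40 members were higher, where 3.05% of all genes were, and 2 were lower, where 12.6% of all genes were. This balance changed without the highest cell of each gene and profile, a setting chosen after seeing the data. There 10 of the 36 members still tested passed, 3 higher and 7 lower. Of all 9781 genes in that setting 4353 passed, 270 higher and 4083 lower. The balance of all genes thus moved the same way, with 6.2% of the genes called higher, against 19.5% in the main fit. With no adjustment, 15 members had p under 0.05 (31% of all genes), 11 higher (5.58%) and 4 lower (25.4%). Over the 40 the median difference was 0.53, beside -0.85 over all genes. Its sign turned without the highest cell (-1.24, beside -1.56 over all genes). The sign also turned without myeloid cells with Col1a1 of 1000 FPKM or more (-0.19, beside -1.02). In both settings the median of the members stayed above that of all genes. The median of the members was 0.26 without capture 1 of day 21 and 0.28 without capture 2 of day 12. Over the 8 MHC class I genes the median was 2.47. The 4 MHC class I genes that rose were B2m, H2-K1, H2-D1 and Psmb9, of 8, and all 8 had a positive difference. B2m rose by 2.12 (SE 0.20, 4.35-fold, adjusted p = 1.6e-05), H2-D1 by 3.54 (SE 0.43, 11.6-fold, adjusted p = 0.00017) and H2-K1 by 3.57 (SE 0.63, 11.9-fold, adjusted p = 0.0029). These 3 were higher in 4 of 4 captures and passed under all 18 alternatives, with an adjusted p of at most 0.024. Counting members by direction alone, 8 were higher in all 4 captures (20%, against 4.91% of all genes) and 6 were lower (15%, against 25.9%).

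The immunoproteasome subunits, which change how the proteasome cuts peptides, were less certain. Psmb8 (chr17:34197721-34201454) was 164.2, 305.3, 606.3 and 206 FPKM in the 4 myeloid captures and 21.49 to 181.9 in the matrix captures, so the ranges overlap, and the difference was 2.08 (SE 0.77, adjusted p = 0.083). Psmb9, its neighbour, rose by 3.24 (SE 0.99, adjusted p = 0.041). Its myeloid captures were 9.44, 6.957, 208.9 and 22.18 FPKM, above all 7 matrix captures, which reached 6.722, but 1 cell held 98.9% of the highest capture. Without capture 1 of day 21 the difference of Psmb9 was 1.96 (adjusted p = 0.18), and leaving out any 1 of 6 of the 7 captures took away its call. Tap1 and Tap2, the 2 chains of the peptide transporter, differed by 0.38 (adjusted p = 0.84) and 1.44 (adjusted p = 0.34). Psmb10, the third subunit and not on the list, rose by 3.15 (SE 0.60, adjusted p = 0.0045).

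Members outside MHC class I moved in both directions in myeloid cells. Ifitm2 was 2710, 2632, 3579 and 3043 FPKM in the myeloid captures, above all matrix captures (1021 to 2232), and rose by 0.88 (SE 0.20, adjusted p = 0.01), a call lost when the values were scaled to TPM (0.51, adjusted p = 0.071) and without capture 1 of day 21 (adjusted p = 0.051). Oas1a, a synthetase of 2′-5′ oligoadenylate that activates RNase L, was 36.34, 44.05, 34.46 and 32.41 FPKM in myeloid captures and at most 7.9 in the others, and rose by 3.70 (SE 0.75, adjusted p = 0.006). It was found in only 7 of 26 myeloid cells, and in 3 of the 4 captures in 1 cell. Gbp7, a large GTPase that acts on vacuoles of intracellular pathogens, was 48.44, 134.1, 206.6 and 29.09 FPKM, with the last of these inside the matrix range of 9.337 to 33.63, and rose by 2.37 (SE 0.63, adjusted p = 0.023), while its adjusted p was 0.11 without capture 1 of day 21 and 0.062 without capture 2 of day 12. Gbp3 fell by 3.40 (SE 0.98, adjusted p = 0.032), from 12.64 to 106.7 FPKM in matrix captures to 0.28, 8.79, 0 and 0 in myeloid captures. Ifit1 fell by 2.81 (SE 0.87, adjusted p = 0.043), from 9.253 to 55.31 FPKM in matrix captures to 7.008 in 1 myeloid capture and 0 in the other 3. As these 2 lie near 0 in myeloid cells, their size depends on the pseudocount, and with a pseudocount of 10 neither passed (-1.27 with adjusted p = 0.2 for Gbp3, -0.94 with adjusted p = 0.25 for Ifit1). Gbp3 also lost its call without capture 2 of day 12 or either capture of day 21 (adjusted p of at most 0.13), and Ifit1 without any 1 of the captures but capture 1 of day 12 (at most 0.16). Gbp3 and Gbp7 are alike in sequence, as are Oas1a and its paralogs and Ifit3 and Ifit3b, so their separation rests on how the quantifier divided shared fragments.

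**Figure D3:**
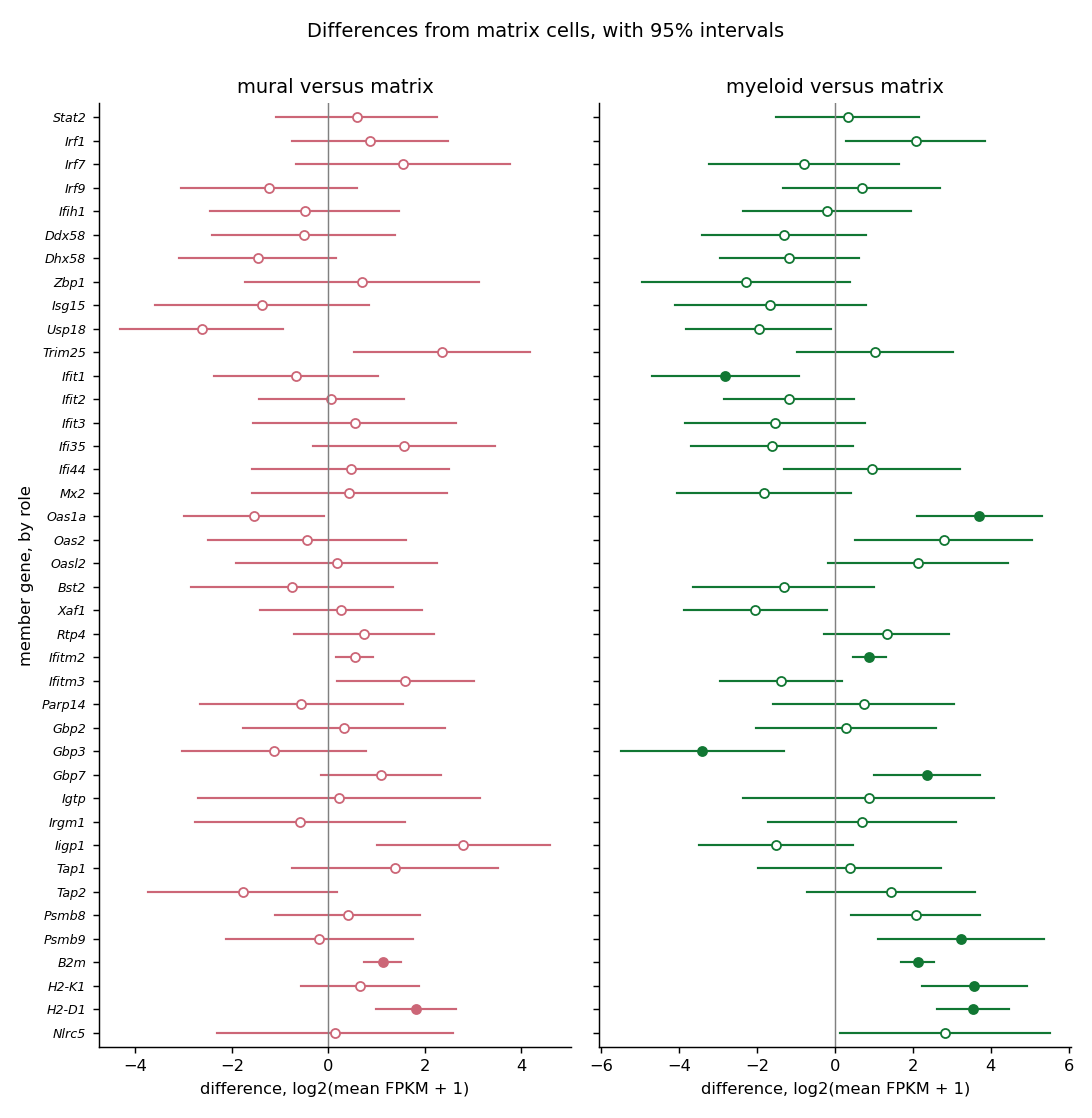
Difference from matrix cells in log2(mean FPKM + 1) for the 40 tested members (rows, by role) in mural (left) and myeloid cells (right); lines are 95% intervals and filled points have an adjusted p under 0.05. Filled points are B2m and H2-D1 on the left, and B2m, H2-K1, H2-D1, Psmb9, Ifitm2, Oas1a, Gbp7, Gbp3 and Ifit1 on the right.

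The 4 myeloid cells with Col1a1 of 1000 FPKM or more bear on these values, as 2 of them lie among the 4 cells of capture 2 of day 15. In a fit without them, chosen after seeing the data, that capture no longer had 3 myeloid cells. Of the 40 members tested 11 passed, 8 higher and 3 lower, where 2465 of all 14035 genes passed, 440 higher and 2025 lower. B2m, H2-K1, H2-D1, Psmb9, Ifitm2, Oas1a, Gbp7 and Gbp3 were among the 11, as were Ifit2, Nlrc5 and Xaf1, and Ifit1 was not (adjusted p = 0.057). In the same fit H2-D1 no longer passed between mural and matrix cells (1.84, adjusted p = 0.062).

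None of the 4 genes of transcription and signalling passed between kinds. Irf1, an early factor downstream of interferon gamma, was 112.2 to 775.4 FPKM in myeloid, 25.4 to 283.8 in mural and 2.289 to 159.4 in matrix captures, with differences of 2.07 (adjusted p = 0.11) and 0.87 (adjusted p = 0.73) from matrix cells. Irf7, which amplifies type I interferon production, was 0.7368 to 53.37 FPKM in matrix and 0 to 106.9 in mural captures, and was at 0 in 3 of 4 myeloid captures. Among the sensors, Ddx58, which encodes RIG-I, was 8.311 to 58.03 FPKM in matrix, 2.591 to 83 in mural and 2.752 to 23.16 in myeloid captures, which overlap. Zbp1, a sensor of Z-form nucleic acid, was 8.446 to 47.67 FPKM in matrix captures, 0.07857 to 154.6 in mural captures, and 0 in 2 of 4 myeloid captures. Neither sensor passed, and Isg15, at 1.757 to 27.95 FPKM in matrix, 0 to 73.09 in mural and 0 to 26.8 in myeloid captures, did not pass either.

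The interferon genes themselves had almost no values in these libraries. Of 10 interferon genes listed, 9 were listed at 0 in every one of the 281 cells, and Ifna5 had a value in 2 cells. As most members were also found in a minority of cells, a 0 here does not show that a cell lacked the transcript. For such a gene the exact two-sided 95% interval of the share of cells with a value reached up to 1.85% of matrix, 6.27% of mural and 13.2% of myeloid cells. It covers counting error only. Receptor genes were present in each kind. Ifnar1 was 6.079 to 30.58 FPKM in matrix, 2.658 to 32.52 in mural and 3.72 to 27.77 in myeloid captures, and Ifngr1 was 15.35 to 48.84, 6.953 to 71.42 and 10.48 to 738.3 FPKM. Neither receptor gene passed between kinds.

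Of 91 other genes of the pathway, 74 were tested between kinds, and 1 rose in mural cells, where 1.05% of all genes were called, while 5 rose and 4 fell in myeloid cells, where 15.7% were. Counted in either direction, these shares do not set the pathway genes apart from all genes. By direction, 3.05% of all genes rose and 12.6% fell in myeloid cells, so the balance there differed from that of the pathway genes. The 1 in mural cells was Ifitm1, next to Ifitm2 and Ifitm3 in the genome, with a difference of 5.27 (SE 1.07, adjusted p = 0.032). In myeloid cells Slfn2 rose by 5.90, Tlr7, an endosomal sensor of single-stranded RNA, by 4.74, Irf8, a factor of the myeloid lineage, by 4.36, Psmb10 by 3.15 and H2-T23, a non-classical class I gene, by 1.97. Those that fell were Isg20 by 3.70, Phf11d by 3.23, Irf3 by 3.14 and Pdia3 by 2.34, of which Pdia3 is a chaperone of the peptide-loading complex. Irf8 and Tlr7 are also known as genes of myeloid cells in the absence of infection.

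Counting members cell by cell showed a few cells with many of them. The count was made over 34 interferon-induced members, which leaves out MHC class I, Ifitm2 and Ifitm3, and a member counted at 10 FPKM or more. The median was 4 in matrix, 6 in mural and 4 in myeloid cells, and 10 matrix, 1 mural and 1 myeloid cell had none. At the other end 16 of the 292 cells had 15 or more, of which 11 were matrix, 3 mural and 2 myeloid. Capture 3 of day 12 held 7 of these 16 among its 32 cells, and the other captures held 2 and 1 at day 12, 2 and 3 at day 15, and 0 and 1 at day 21.

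The cell with the most was a myeloid cell of that capture, with 28 of the 34. It had 2176 FPKM of Ifit3, 1707 of Oasl2, 1086 of Irf7, 359.6 of Ifit1, 292.1 of Rsad2, 288.5 of Usp18 and 169.6 of Isg15. As the only myeloid cell of its capture it entered no profile and no test. Its Tyrobp was 7055 FPKM, its Col1a1 0.88 and its Rgs5 2.6. The other myeloid cell with 15 or more had 20, and also had 10805 FPKM of Col1a1 beside 2527 of Tyrobp. The highest mural cell had 22, with 10035 genes found, near the limit of 11000, and with Rgs5 at 6817 and Col1a1 at 2472 FPKM. The highest matrix cell, of day 15, also had 22, with Ifit3 at 683.3, Oasl2 at 736.4 and Ifit1 at 251.8 FPKM.

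**Figure D4:**
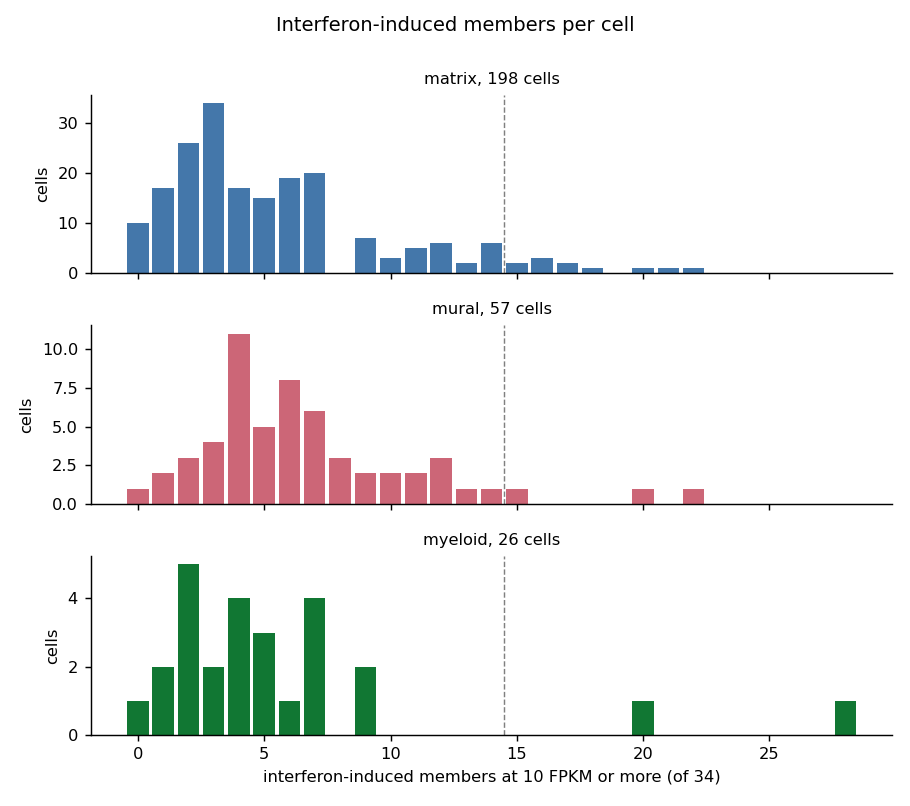
Number of cells (vertical axis, own range in each panel) by the number of 34 interferon-induced members at 10 FPKM or more, for 198 matrix, 57 mural and 26 myeloid cells; the dashed line separates cells with 15 or more. In 158 matrix, 40 mural and 22 myeloid cells the number is 7 or fewer, and 1 myeloid cell stands apart at 28.

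Within a kind, the members were loosely tied across cells. Over 528 pairs of the interferon-induced members found in matrix cells, the median Spearman rho was 0.14, and for Usp18 and Ifit1, a pair picked after its value was seen, it was 0.527 over 198 cells. The number of members per matrix cell had a rho of -0.141 with fragments and 0.27 with genes found. These points share captures and depth, and they are given as a description only.

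In matrix cells the days were compared over captures with limma, and no member passed the threshold between any 2 days. Of all 13552 genes tested, 0% passed between days 15 and 12, 0.00738% between days 21 and 12, and 0% between days 21 and 15. With no adjustment, 3, 12 and 8 of the 40 members had p under 0.05, where 5.84%, 7.14% and 5.5% of all genes did. Between days 15 and 12 these were 2 higher and 1 lower, where 2.08% and 3.76% of all genes were. Between days 21 and 12 they were 2 higher and 10 lower, beside 2.46% and 4.69% of all genes, and between days 21 and 15 they were 1 higher and 7 lower, beside 2.19% and 3.31%.

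The values leaned to lower interferon-induced genes at day 21. Between days 21 and 15 every day 21 capture was below every day 15 capture for 21 of 40 members (52.5%, against 16.6% of all genes) and above for 1, Ifitm2 (2.5%, against 13.2%). Between days 21 and 12 the same held for 10 members below (25%, against 14.4%) and 2 above, H2-K1 and H2-D1 (5%, against 7.98%), and between days 15 and 12 for 8 above (20%, against 8.81%) and 3 below (7.5%, against 13%). These comparisons share captures, so they are not independent of each other. The median difference over members was -1.23 between days 21 and 15, -0.84 between days 21 and 12 and 0.52 between days 15 and 12, beside -0.05, -0.19 and -0.10 over all genes. Single captures moved these medians. That between days 15 and 12 was 0.06 without capture 2 of day 15 (all genes -0.02) and 0.18 without capture 2 of day 12 (all genes -0.06). That between days 21 and 12 was -0.45 without capture 3 of day 12 (all genes -0.20).

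Dhx58, which encodes the RNA sensor LGP2, had the largest day 21 differences of the members. Its matrix level was 27.49, 7.499 and 21.65 FPKM at day 12, 26.12 and 55.16 at day 15, and 0 and 0.01235 at day 21. It was found in 12 of 74 cells at day 12, 15 of 72 at day 15 and 1 of 52 at day 21, and at day 12 and 15 a single cell held 33 to 96.2% of a capture's sum. The difference from day 12 was -4.13 (SE 0.81, adjusted p = 0.2) and from day 15 -5.28 (SE 0.89, adjusted p = 0.43), sizes that depend on the pseudocount because day 21 is near 0. Day 21 cells were the more deeply sequenced, with matrix medians of 2243370 and 2311800 fragments against 968484 to 2070890 in the other captures.

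Other members with low values at day 21 belong to several roles. Oasl2 was 45.89, 29.54 and 64.42 FPKM at day 12, 54.3 and 89.76 at day 15, and 17.12 and 16.26 at day 21, so that both day 21 captures lay below all others. Usp18 was 75.48, 17.83 and 50.82 FPKM at day 12, 17.61 and 21.15 at day 15, and 8.329 and 1.387 at day 21, again below all others. Igtp, a GTPase that acts on parasite vacuoles, was 10.54, 1.396 and 13.98 FPKM at day 12, 21.24 and 38.78 at day 15, and 0 and 0.5056 at day 21. Of these 3, none passed: the differences between days 21 and 12 were -1.36 (SE 0.55, adjusted p = 0.67), -3.16 (SE 0.82, adjusted p = 0.44) and -2.60 (SE 0.97, adjusted p = 0.62). Ddx58, at 26.56 to 58.03 FPKM in the captures of days 12 and 15, was 20.84 and 8.311 at day 21 (difference from day 12 -1.76, SE 0.58, adjusted p = 0.57). Isg15 was 9.848 to 27.95 FPKM before day 21 and 1.757 and 8.651 at day 21 (difference from day 12 -1.90, SE 0.81, adjusted p = 0.69). Gbp3 was lower at day 21 than in each day 12 capture, with 17.76 and 12.64 against 32.15 to 106.7 FPKM, but its day 15 captures, at 41.2 and 14.59, overlapped both. Irf1 was 51.97 to 159.4 FPKM in the captures of days 12 and 15, and 2.289 and 89.67 at day 21, where 1 cell held the whole of the lower value.

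MHC class I heavy chains leaned the other way from day 12. H2-K1 was 89.41, 29.79 and 102.8 FPKM at day 12, 184 and 133.8 at day 15, and 185.7 and 154.4 at day 21, with all 3 day 12 captures below the rest. H2-D1 had no overlap between days 12 and 21 either, with 101 to 152.8 against 277 and 301.1 FPKM. The differences between days 21 and 12 were 1.37 (SE 0.55, adjusted p = 0.67) for H2-K1 and 1.22 (SE 0.42, adjusted p = 0.58) for H2-D1. B2m showed no such split, at 0.27 (SE 0.35, adjusted p = 0.88). Mural and myeloid cells were captured in too few captures per day for such a comparison.

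**Figure D5:**
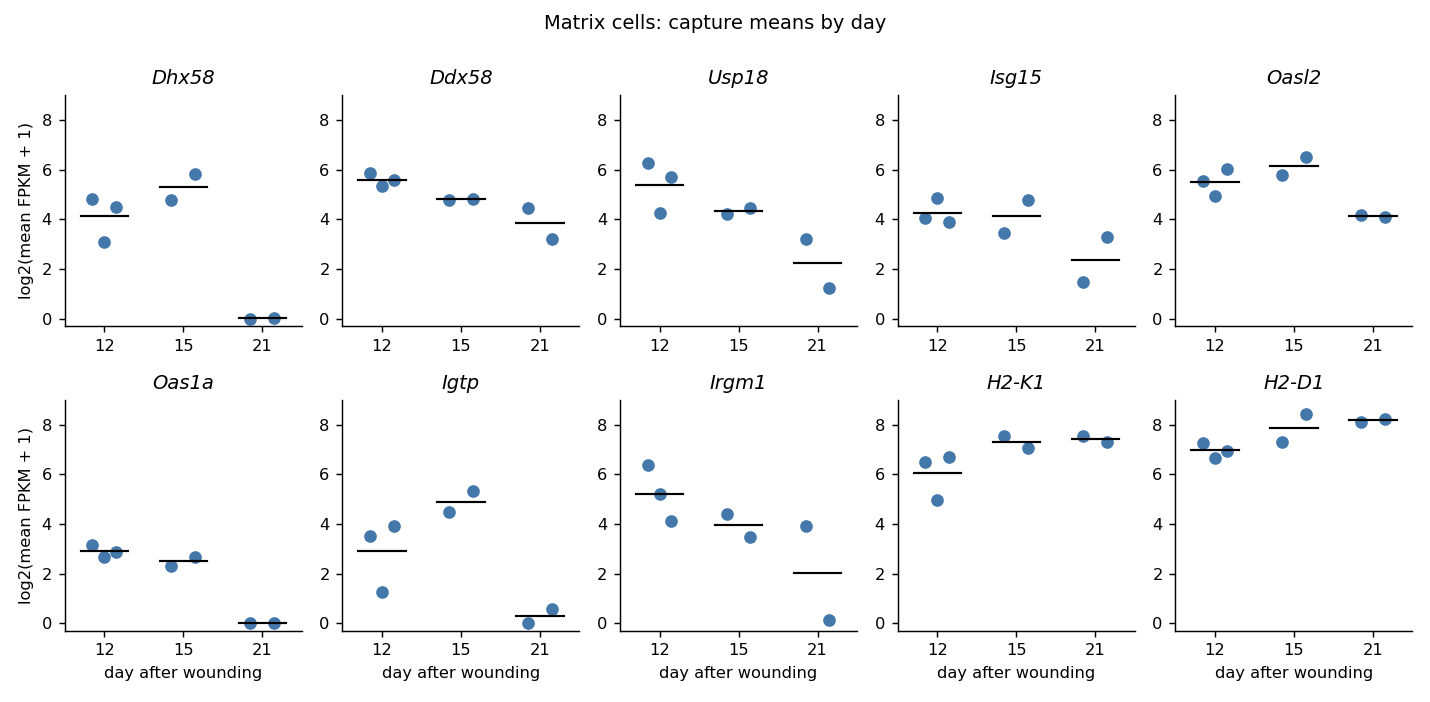
Matrix cells: log2(mean FPKM + 1) of 10 members by post-wounding day, each point a capture and the bar the mean of the day. Dhx58, Oas1a and Igtp lie near 0 in both day 21 captures, and H2-K1 and H2-D1 are lowest in the 3 day 12 captures. No difference between days passed the threshold.

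The count of interferon-induced members per matrix cell was also low at day 21. Its median was 7, 3 and 6 at day 12, 5 and 7 at day 15, and 3 in both captures of day 21. The day 21 medians equalled that of capture 2 of day 12, so the days overlap. Cells with 15 or more numbered 1, 1 and 4 at day 12, 2 and 2 at day 15, and 0 and 1 at day 21. Among the 67 other pathway genes tested in matrix cells none passed between days, and 49 of them had a negative and 18 a positive difference between days 21 and 15, where 46.5% of all genes were positive.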

How the data were processed

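Values were read from the 7 matrices of single tdTomato-high cells. Per the labels and the methods, the authors aligned paired-end reads to mm10 with Bowtie 1.0.0, quantified them with RSEM against GENCODE M13 and deposited FPKM per gene and cell, with no counts. Strandedness was not given in the sources used here. Symbols and positions came from GENCODE M21 (GRCm38), which held 50376 of the 50600 IDs, and 2 list symbols were matched through RefSeq synonyms.

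Fragments per cell were estimated from the steps between low FPKM values of 9420 single-transcript genes, with an assumed fragment length of 300 bases. Cells needed the fragment minimum given in the methods, at most 11000 genes and at most 15% mitochondrial FPKM. Doublets were not called. As FPKM has no count model, mean FPKM per capture and kind (at least 3 cells) were compared as log2(mean + 1) with limma 3.58.1 (R 4.3.3) and a variance trend. Genes averaging 1 FPKM or more were kept, tests were two-sided, and p-values were adjusted by Benjamini and Hochberg over all genes tested, with a threshold of 0.05. Kinds were compared in 1 fit of 16 profiles with capture as a block, and days over the matrix profiles of 7 captures with no block. The scripts were tested on simulated data. For limma, 200 of the more abundant genes were changed, with normal noise and no floor at 0. The shares recovered therefore do not cover members of low level. Of changes of 2 on the log2 scale, 9% were recovered between mural and matrix cells and 4.5% between myeloid and matrix cells. Between days 1.5% (15 and 12), 1% (21 and 12) and 0% (21 and 15) were recovered. Of changes of 4, 63.5 to 74.5% were recovered. A member that did not pass, above all between days, may therefore still differ. Cells of 1 capture share tissue and chip, so the capture was the replicate.

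The text names the members past the threshold, the 2 most abundant members of each role and, chosen after their values were seen, others with a stated pattern. The members and lists were chosen with earlier results of these data known. Alternatives tried were other pseudocounts, filters, means, TPM scaling, blocks and left-out captures or cells. Values of 1 gene of the pathway lists are not reported here.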

Additional observations from a re-analysis of the deposited data

Results flagged for a closer look

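Of 110 sets of capture means of a member within a kind (4 to 7 captures, highest mean at least 10 FPKM), 11 had 1 capture whose gap to the nearest other exceeded Dixon's 95% limit, where chance flags about 1 in 20. Capture 1 of day 21 was the low capture in 4 of them: Ifitm3 at 684.9 FPKM in matrix cells (others 1287 to 1999) and 2814 in mural cells (others 4763 to 5567), Irf1 at 2.289 in matrix cells (others 51.97 to 159.4), and Oasl2 at 1.346 in mural cells (others 58.96 to 142.1). In matrix cells H2-K1 was low in capture 2 of day 12, at 29.79 FPKM (others 89.41 to 185.7).

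The other 6 were high myeloid captures. In capture 2 of day 15, with 4 cells of which 2 had Col1a1 of 1000 FPKM or more, Irf7 was 347.2, Dhx58 36.73 and Usp18 33.66 FPKM where the other myeloid captures were at 0, and Iigp1 was 13.73 (others 0.3145 to 0.8067). One cell held 100% of Dhx58 and of Usp18 there. In capture 2 of day 12, Isg15 was 26.8 FPKM where the others were at 0, and Parp14 was 102.5 (others 0.08 to 0.954), 91.0% of it in 1 cell.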

How the results depend on the processing

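The alternatives gave 768 values of the 46 member differences with p under 0.05 before adjustment in the main fit. Of these values 700 kept direction and side of the threshold, 52 fell short of it, 15 passed it and 1 reversed. The reversal was Irf1 between myeloid and matrix cells without the highest cell of each gene and profile (-0.63). Most of the 46 had not passed in the main fit, and staying short of the threshold counts as kept. All 52 concern differences that had passed. In myeloid cells Psmb9 fell short in 12 and Ifit1 in 11 of 18 alternatives, and in mural cells H2-D1 in 8 of 18. B2m, H2-D1 and H2-K1 passed under all 18 in myeloid cells. Members past the threshold between mural and matrix cells numbered 2, and 1 with a pseudocount of 0.1 or 10 or without myeloid cells with Col1a1 of 1000 FPKM or more, 0 with no filter on low values, 4 with the mean of log2 over cells, 7 weighted by number of cells, 4 without the highest cell, and 0 to 2 leaving out a capture. Between myeloid and matrix cells they numbered 9, and 5 with no filter or the 2 kinds only, and 5 to 9 leaving out a capture, with 5 without capture 1 of day 21, and 10 (3 higher, 7 lower, against 7 and 2) without the highest cell. Of all genes called between myeloid and matrix cells, 6.2% were higher without the highest cell, against 19.5% in the main fit. The 2 settings that leave out cells were chosen after seeing the data. With no replicate block the counts were 2 and 9. For the days the count was 0 in each setting, also with the replicate block on the capture number (0). Deviations from the day mean in captures with the same number had correlations of -0.00685 to 0.025. Where a day has 2 captures these deviations mirror each other, and profiles of few cells vary widely. The correlations therefore cannot decide whether the number pairs captures. All genes called ran from 47 (without capture 1 of day 15) to 881 (weighted) around 147 in mural, and from 861 (the 2 kinds only) to 4353 (without the highest cell) around 2200 in myeloid cells. The mean of log2 over cells called 70 genes between days 15 and 12 and 89 between days 21 and 12. Scaling to TPM moved the median of all genes in myeloid cells from -0.85 to -1.05. The cause of these changes was not tested. Few cells a capture limit precision: myeloid profiles had a median of 4.5 cells, mural 9 and matrix 26.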
